A study of Homo sapiens with 15 samples.

Results

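The high mobility group (HMG) genes HMGA1, HMGA2, HMGB1, HMGB2, HMGB3, HMGN1, HMGN2, HMGN3, HMGN4 and HMGN5 encode the non-histone chromatin proteins described here. They were taken as a fixed list of 10 symbols, and all 10 were found among the 57272 genes of the count table through their GENCODE 44 identifiers. All 10 had enough reads to be tested among 15799 genes. In GRCh38, GENCODE 44 places HMGA1 at chr6:34236873-34246231, HMGA2 at chr12:65824460-65966291, HMGB1 at chr13:30456704-30617597, HMGB2 at chr4:173331376-173334432, HMGB3 at chrX:150980509-150990771, HMGN1 at chr21:39342315-39349647, HMGN2 at chr1:26472440-26476642, HMGN3 at chr6:79201245-79234689, HMGN4 at chr6:26538366-26546933 and HMGN5 at chrX:81113699-81201913.

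HMG proteins are small, abundant proteins that bind chromatin without being part of the nucleosome. HMGA proteins hold AT-hooks that bind the minor groove of AT-rich DNA, HMGB proteins bend DNA through HMG boxes, and HMGN proteins bind the nucleosome core and compete with linker histones. In cultured fibroblasts, HMGA proteins are known as components of senescence-associated heterochromatin foci, HMGB2 loss from chromatin is known as a feature of senescence, and HMGB1 is also known outside the cell as a danger signal.

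RNA was sequenced from MRC-5 cells, a line of human fetal lung fibroblasts with a limited number of divisions, in 15 libraries of 5 conditions with 3 replicates each. Young cells at population doubling (PD) 30 carried either the empty GFP lentiviral vector pWPIR-GFP or the same vector expressing the telomere-binding protein TRF2, both with a control siRNA. A further set of young cells carried the empty vector and received an siRNA against LMNB1, the gene of the nuclear lamina protein Lamin B1. Senescent cells, infected before they stopped dividing and given the control siRNA, carried the empty vector (PD 71) or TRF2 (PD 75). All conditions thus share a lentiviral infection and an siRNA transfection, while the time between infection and harvest differed between young and senescent cells. The 6 senescent libraries are labelled as reanalyses of an earlier deposit, so that senescence and deposit cannot be told apart. Replicate 3 of the senescent empty vector cells appears to refer to a separate original record. Its mean chi-square per gene against counting noise was 131 and 99.3 with replicates 1 and 2, which had 37.9 between them. Whether the record bears on its values was not tested. The labels do not say whether the replicates were separate cultures, and p-values measure only the spread between these libraries.

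Sequences of HMG genes are shown first as background to the HMGA and HMGB results. HMGA2 is a textbook target of the let-7 microRNAs, whose seed (bases 2 to 8, in capitals) pairs with its 3′ untranslated region. The let-7a and miR-98 sequences below, from RefSeq (GRCh38.p14), share that seed.
hsa-let-7a-5p: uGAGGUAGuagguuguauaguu
hsa-miR-98-5p: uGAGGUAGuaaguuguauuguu

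The letters that match this seed, CTACCTC (in capitals), occurred 4 times in the 3′ untranslated region of the canonical HMGA2 transcript, once in HMGA1 and not in the other 8 HMG genes. Of 19527 genes with such a region, 9.76% held at least 1 match and 0.061% held at least 4. The sites below lie on the plus strand (GRCh38, GENCODE 44). MicroRNAs were not measured in these libraries.
HMGA1, chr6:34245829-34245851: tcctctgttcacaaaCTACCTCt
HMGA2, chr12:65963298-65963320: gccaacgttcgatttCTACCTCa
HMGA2, chr12:65964533-65964555: ccccactactcaataCTACCTCt
HMGA2, chr12:65964945-65964967: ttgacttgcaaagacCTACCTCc
HMGA2, chr12:65965798-65965820: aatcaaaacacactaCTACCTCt

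Promoter sequences from RefSeq (GRCh38.p14), running from 250 bases before to 50 after an annotated start, were at hand for 8 of the 10 genes in 12 windows. HMGA2 and HMGB2 had no entry. CCAAT, searched on both strands (ATTGG on the other), was chosen because it is common in the promoters of cell cycle genes. It occurred in 8 of the 12 windows, belonging to 6 genes, against 34.6% of 35116 promoter windows of the same length. At least 3 matches were found in 2 windows, of HMGB1 and HMGB3, against 3.26% of all windows. The 250 bases before those starts are printed with the matches in capitals, beside HMGN4, whose window held no match. Another window of HMGB1, another of HMGB3 and that of HMGN5 also held no match, and that of HMGN3 held 2. A relation between matches and changes in level was not tested.
HMGB1, chr13:30465937-30466186 (minus strand): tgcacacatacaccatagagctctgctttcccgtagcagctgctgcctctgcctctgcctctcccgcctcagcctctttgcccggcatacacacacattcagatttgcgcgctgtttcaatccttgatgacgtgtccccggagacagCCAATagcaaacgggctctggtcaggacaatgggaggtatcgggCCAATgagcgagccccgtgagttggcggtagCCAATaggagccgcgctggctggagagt
HMGB3, chrX:150983085-150983334 (plus strand): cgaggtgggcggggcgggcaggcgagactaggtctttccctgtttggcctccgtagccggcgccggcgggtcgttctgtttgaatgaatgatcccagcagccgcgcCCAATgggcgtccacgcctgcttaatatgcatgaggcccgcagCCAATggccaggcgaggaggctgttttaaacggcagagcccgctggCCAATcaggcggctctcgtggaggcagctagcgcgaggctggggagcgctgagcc
HMGN4, chr6:26538116-26538365 (plus strand): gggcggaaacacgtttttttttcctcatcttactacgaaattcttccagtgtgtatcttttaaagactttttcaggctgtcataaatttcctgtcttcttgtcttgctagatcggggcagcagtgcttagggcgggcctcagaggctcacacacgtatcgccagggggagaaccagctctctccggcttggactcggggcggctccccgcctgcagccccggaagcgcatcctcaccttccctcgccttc

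A match is a description of letters and not of binding. The cell cycle gene homology region, searched as TTTGAA and TTCGAA on both strands, occurred once each in a window of HMGB1 and a window of HMGB3, against 16.4% of all windows with at least 1 match. The E2F motif was searched as TTTCCCGC, TTTCGCGC, TTTGCCGC and TTTGGCGC on both strands. No HMG window held it, against 3.31% of all windows with at least 1 match.

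Levels of the HMG genes differed widely within a condition. Per length of the canonical transcript (RPKM, read counts scaled to length and library size), the order of mean levels in young cells with the empty vector was HMGA1 (857), HMGA2 (222), HMGN1 (198), HMGN2 (156), HMGB1 (85.9), HMGB2 (64.1), HMGN4 (20.5), HMGB3 (17.4), HMGN3 (16.8) and HMGN5 (1.47). Among neighbours in this order, HMGB3 and HMGN3 overlapped between libraries. In empty vector senescent cells the order of RPKM levels was HMGA1 (772), HMGN1 (126), HMGA2 (108), HMGN2 (49.97), HMGB1 (24.1), HMGN4 (21.1), HMGB2 (12.4), HMGN3 (8.16), HMGB3 (7.34) and HMGN5 (1.16). There HMGN1 and HMGA2 overlapped, as did HMGB2 and HMGN3, and HMGN3 and HMGB3. HMGB2 thus stood above HMGN4 in all young libraries with the empty vector and below it in all senescent ones with that vector. The middle of the order depends on the length used, since over the union of all exons HMGA2 was at 60.7 RPKM and HMGB1 at 60.9 in the young cells.

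**Figure D1:**
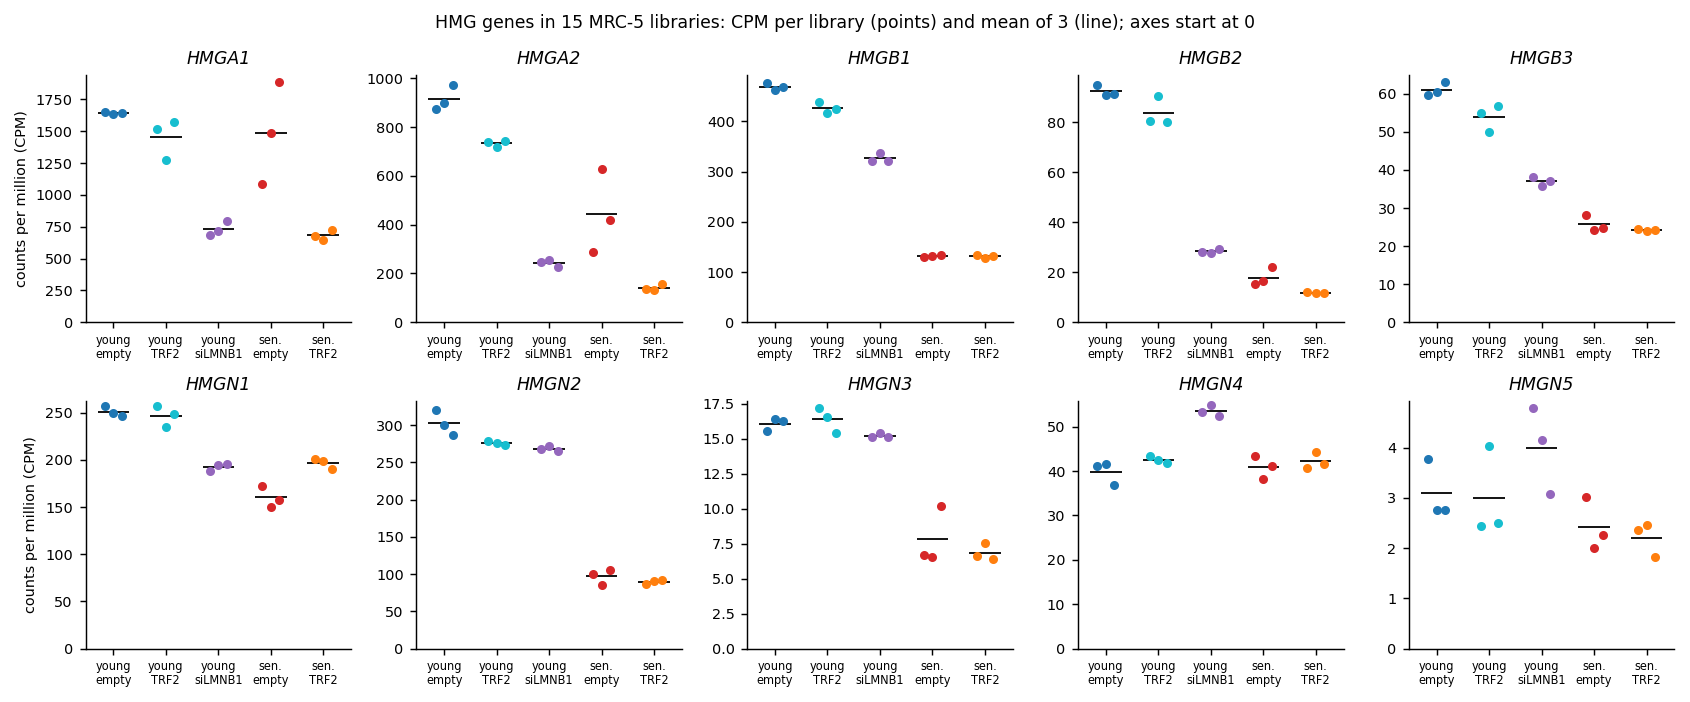
Read level (CPM, TMM-normalized, y axis from 0) of each HMG gene in each of the 15 libraries (points), by condition (x axis), with the mean of 3 as a line. HMGB1 stood between 462 and 476 CPM in young cells with the empty vector and between 129 and 134 in senescent cells with that vector, and HMGN4 stood between 52.3 and 55.0 CPM with siLMNB1, above all its other libraries.

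Total counts lay between 26725885 and 43116046 per library. LMNB1 fell to a mean of 2.67 CPM with siLMNB1 against 59.7 in the control and to 5.13 and 3.34 CPM in senescent cells with the empty vector and TRF2. TERF2, which encodes TRF2, was at 195 ± 97.7 CPM (SD, n = 3) in young and 235 ± 43.6 CPM in senescent cells with the TRF2 vector, against 23.8 and 25.0 CPM with the empty vector. All 10 fibroblast markers had over 10 reads in every library, and 4 leukocyte markers summed to at most 0.237 CPM. The sum was 1.49 to 4.15 CPM for 4 endothelial markers, highest in senescent cells with the empty vector, and 0.114 to 11.7 CPM for 5 epithelial markers, of which 1 had no read in any library. The epithelial sum of 11.7 CPM belonged to a young library with the empty vector, and the part of these markers in the results was not tested. The slope of log2 CPM on GC content, per 10 points of GC and relative to the young empty vector libraries, was -0.00633 to 0.134 in young libraries and 0.46 to 0.823 in senescent ones, being highest in replicate 3 of the senescent empty vector cells. The GC content of the HMG genes ran from 35% to 61.5% (HMGA1) with a median of 41.3%, against a median of 47.6% over all genes tested. Values with offsets for GC content and length are therefore given beside results that they change.

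Which HMG genes changed at senescence was examined first between cells with the empty vector. All 3 HMGB genes fell, at log2 fold changes of -2.37 for HMGB2, -1.83 for HMGB1 and -1.25 for HMGB3. Those of the other genes that fell were -1.64 for HMGN2, -1.04 for both HMGA2 and HMGN3, and -0.65 for HMGN1. HMGA1, HMGN4 and HMGN5 did not pass the test. Thus 7 of 10 HMG genes fell and 0 rose, where 31.9% of all genes tested fell and 32.7% rose at an adjusted p below 0.05 (quasi-likelihood test in edgeR, adjusted after Benjamini and Hochberg). With a log2 fold change of -1 or below as well, the count was 6 lower, against 11.8% of all genes. It was 4 with offsets for GC content and length or without senescent replicate 1, where HMGA2 and HMGN3 missed this fold limit and still passed the test. The median log2 fold change was -1.04 over the 10 genes and 0.02 over all genes tested. In bulk RNA, fewer cells with a transcript and less transcript per cell cannot be told apart.

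HMGB1, a DNA-bending protein of the nucleus that can also be released, was at 476, 462 and 468 CPM in the young cells and at 129, 132 and 134 CPM in senescent cells carrying the empty vector. The groups did not overlap and each was narrow. The fall was 3.56-fold (log2 fold change -1.83, SE 0.07, adjusted p = 1.8e-12). HMGB2, which is abundant in dividing cells, was at 94.9, 90.8 and 91.4 CPM in young and at 15.2, 16.4 and 22 CPM in senescent cells. Every senescent library lay far below the young ones, and the fall was 5.16-fold (SE 0.12 on the log2 scale, adjusted p = 5.4e-11). HMGB3, the X-linked member, was at 59.8, 60.4 and 63.1 CPM against 28.2, 24.3 and 24.7 CPM. It fell 2.38-fold without overlap (adjusted p = 2.8e-09). With GC and length offsets the log2 fold changes of HMGB1, HMGB2 and HMGB3 were -1.36, -1.78 and -1.09, and all were still called.

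HMGA1, an architectural protein of AT-rich DNA, was at 1651, 1639 and 1645 CPM in young and at 1082, 1482 and 1883 CPM in senescent cells with the empty vector. The senescent libraries spread around the young values, with replicate 1 below and replicate 3 above them. The log2 fold change was -0.15 (SE 0.14, adjusted p = 0.373). It was -0.38 (adjusted p = 0.0065) without senescent replicate 3, the library with the GC slope of 0.823, and 0.03 without senescent replicate 1. With GC and length offsets it was -0.89 (adjusted p = 2.9e-07), so that the call of HMGA1, the member with the highest GC content, depends on these offsets. HMGA2, its paralog and an oncofetal gene, was at 873, 899 and 973 CPM in young and at 289, 627 and 420 CPM in senescent cells. Although the senescent values spread widely, the groups did not overlap. The fall was 2.05-fold (log2 fold change -1.04, SE 0.18, adjusted p = 1.1e-04), and with the offsets the log2 fold change was -0.51 (adjusted p = 0.0352).

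Among the HMGN genes, HMGN2 was at 321, 301 and 287 CPM in young and at 101, 85.4 and 105 CPM in empty vector senescent cells, a fall of 3.12-fold (adjusted p = 8.8e-11). HMGN1, which is encoded on chromosome 21, was at 257, 250 and 247 CPM against 173, 150 and 157 CPM. Neither gene overlapped between the groups, and HMGN1 fell 1.57-fold (adjusted p = 1.1e-06). HMGN1 was at -0.33 on the log2 scale with the offsets (adjusted p = 1.1e-03). HMGN3 was at 15.6, 16.4 and 16.3 CPM against 6.69, 6.56 and 10.2 CPM, the third senescent library standing above the other two. Its fall was 2.05-fold (adjusted p = 8.0e-06), with -0.43 on the log2 scale with the offsets (adjusted p = 0.0145), and 10.7% of its exonic bases are shared with another gene. HMGN4, an HMGN2-related gene whose coding sequence has no introns, was at 41.1, 41.6 and 37.0 CPM in young and at 43.4, 38.3 and 41.1 CPM in senescent cells. Its groups overlapped (log2 fold change 0.04, 95% confidence interval -0.13 to 0.21), and with the offsets its log2 fold change was 0.48 (adjusted p = 2.6e-05). HMGN5, the least expressed member with 54 to 108 reads in these libraries, overlapped between groups (log2 fold change -0.35, 95% confidence interval -0.87 to 0.18), and with the offsets its sign turned to 0.53 (adjusted p = 0.0658).

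**Figure D2:**
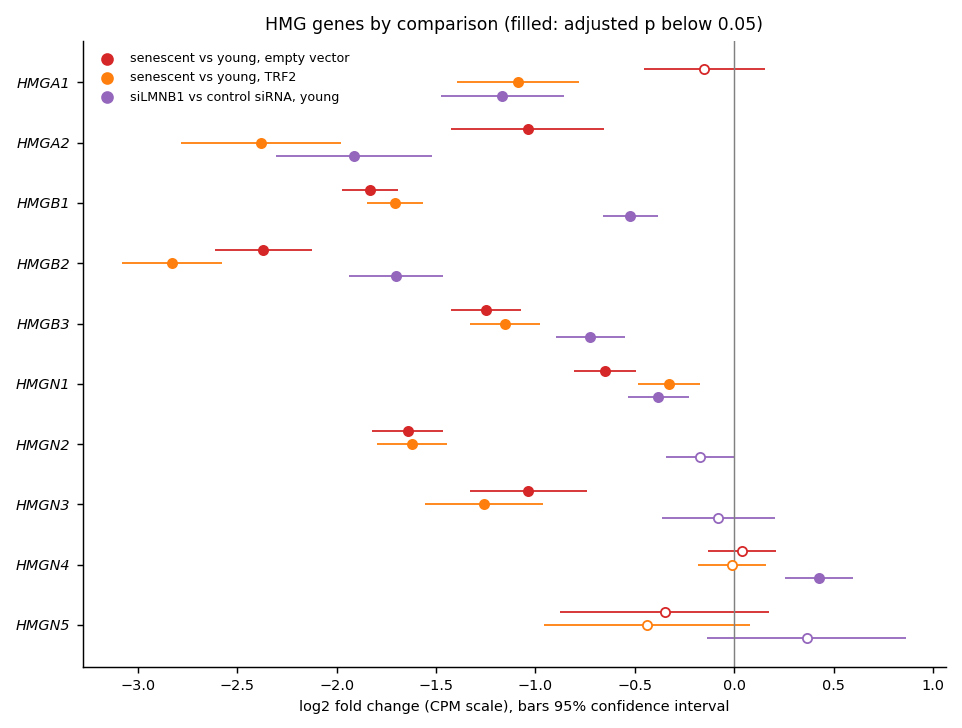
Log2 fold changes (x axis) of the HMG genes (y axis) in both senescence comparisons and with siLMNB1, with 95% confidence intervals as bars and filled points where the adjusted p was below 0.05. The 3 HMGB genes lie left of 0 in all 3 comparisons, and HMGN4 lies right of 0 with an interval above 0 only with siLMNB1.

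Between senescent and young cells that both expressed TRF2, the same question was asked in separate libraries. The log2 fold changes of the genes that fell were -2.83 for HMGB2, -2.38 for HMGA2, -1.71 for HMGB1, -1.62 for HMGN2, -1.26 for HMGN3, -1.15 for HMGB3, -1.09 for HMGA1 and -0.33 for HMGN1. These were 8 of 10 genes lower and 0 higher, against 30.1% of all genes lower and 28.2% higher. The median log2 fold change was -1.21, against -0.02 over all genes tested. HMGN4 was at 42.6 ± 0.895 CPM in young and 42.2 ± 1.95 CPM in senescent cells (SD, n = 3). HMGN5 was at 3.00 ± 0.902 and 2.21 ± 0.339 CPM, and neither gene passed the test.

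HMGA2 was at 738, 720 and 743 CPM in young cells with TRF2 and at 137, 131 and 155 CPM in senescent cells with TRF2. Both groups were narrow and lay far apart, and the fall was 5.21-fold (SE 0.19 on the log2 scale, adjusted p = 2.0e-08). HMGA1 was at 1516, 1275 and 1571 CPM against 679, 647 and 726 CPM. Its groups did not overlap in these cells, and it fell 2.13-fold (adjusted p = 8.4e-06). HMGB1 was at 439, 417 and 425 CPM against 133, 128 and 132 CPM, a fall of 3.26-fold (adjusted p = 3.1e-12). HMGB2 was at 80.6, 90.4 and 80.0 CPM against 12.2, 11.6 and 11.5 CPM, a fall of 7.10-fold (log2 fold change -2.83, adjusted p = 6.7e-12), or -2.21 on the log2 scale with the offsets. The senescent values of both genes were nearly the same in all 3 libraries. HMGN1 was at 257, 235 and 248 CPM against 201, 199 and 190 CPM (adjusted p = 1.0e-03). Its call was lost with the offsets, at -0.02 (adjusted p = 0.849). With the offsets HMGN3 fell by 0.61 (adjusted p = 1.4e-03), HMGN4 was called higher at 0.52 (adjusted p = 8.7e-06), and HMGN5 was at 0.41 (adjusted p = 0.15).

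**Figure D3:**
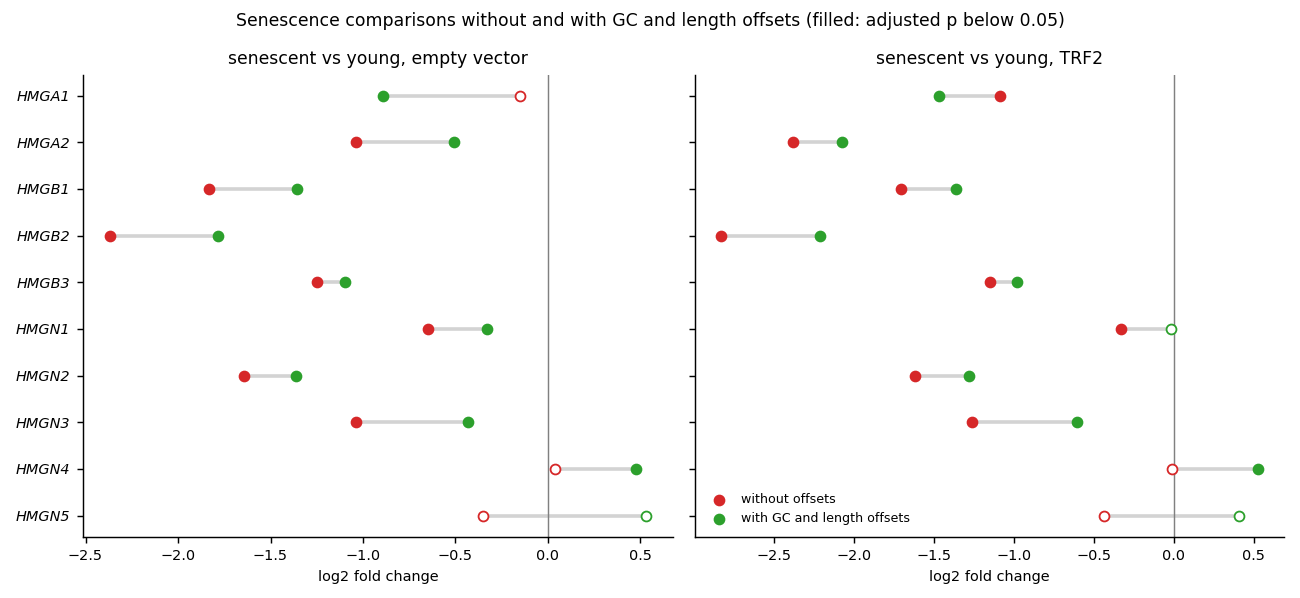
Log2 fold changes (x axis) of the HMG genes (y axis) between senescent and young cells, without and with offsets for GC content and length, for the empty vector (left) and TRF2 (right), filled where the adjusted p was below 0.05. HMGA1 moved from -0.15 to -0.89 with the empty vector, while HMGN4 and HMGN5 moved to the right of 0 in both panels.

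The siRNA against LMNB1 was compared with the control siRNA in young cells at PD 30. Whether the cells kept dividing was not tested, and 21 of 24 genes high in dividing cells fell in them. With siLMNB1 the log2 fold changes of the genes that fell were -1.91 for HMGA2, -1.70 for HMGB2, -1.17 for HMGA1, -0.72 for HMGB3, -0.52 for HMGB1 and -0.38 for HMGN1, and HMGN4 rose by 0.42. These were 6 genes lower and 1 higher of 10, against 16.1% of all genes lower and 16.4% higher. At a log2 fold change of -0.58 or below, the 4 genes HMGA1, HMGA2, HMGB2 and HMGB3 were lower, against 8.06% of all genes. The median log2 fold change was -0.45 over the HMG genes and 0.04 over all genes. These cells share their control libraries with the senescence comparison of the empty vector.

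HMGA2 was at 249, 254 and 226 CPM with siLMNB1 against 873, 899 and 973 CPM in the control, a fall of 3.77-fold (adjusted p = 1.4e-06). HMGA1 was at 687, 718 and 794 CPM against 1651, 1639 and 1645 CPM, a fall of 2.24-fold (adjusted p = 1.8e-05). Both HMGA genes were separated from the control in every library. HMGB2 was at 28.1, 27.8 and 29.3 CPM, 3.25-fold below its control (adjusted p = 3.0e-08). HMGB1 was at 321, 336 and 322 CPM, 1.44-fold below (adjusted p = 1.6e-05). HMGB3 was at 38.2, 35.8 and 37.0 CPM, 1.65-fold below (adjusted p = 6.9e-06). No HMGB library with siLMNB1 reached its control range. HMGN1 was at 188, 195 and 195 CPM, 1.30-fold below its control (adjusted p = 8.1e-04). HMGN4 was at 53.4, 55.0 and 52.3 CPM against 41.1, 41.6 and 37.0 CPM, 1.34-fold higher (adjusted p = 7.4e-04). It was the single HMG gene that rose, and its groups did not overlap.

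HMGN2 was at 267, 273 and 266 CPM with siLMNB1 against 321, 301 and 287 CPM (log2 fold change -0.17, adjusted p = 0.113). Its groups did not overlap, and with the offsets it was called lower at -0.23 (adjusted p = 0.0281). It was also called without replicate 3 of the senescent empty vector cells, which enter the estimate of the spread (log2 fold change -0.18, adjusted p = 0.021). DESeq2 and a fit of only the libraries compared called HMGN2 as well, with 5592 of 15799 and 8019 of 14463 genes called in all. HMGN3 was at 15.1, 15.4 and 15.1 CPM against 15.6, 16.4 and 16.3 CPM (log2 fold change -0.08, 95% confidence interval -0.36 to 0.20). HMGN5 was at 4.78, 4.14 and 3.08 CPM against 3.77, 2.76 and 2.75 CPM (log2 fold change 0.36, adjusted p = 0.261).

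With TRF2 in young cells 0 of 10 HMG genes were called, where 0.177% of all genes were called (28 genes) by edgeR's quasi-likelihood test. The median log2 fold change was -0.13 over the HMG genes and 0.005 over all genes tested. At an unadjusted p below 0.05 the count was 1 (HMGB3) with edgeR and 3 (HMGB1, HMGB3 and HMGN2) with DESeq2. At an adjusted p below 0.05, DESeq2 called 0 HMG genes and 191 of 15799 genes in all. HMGA2 was at 738, 720 and 743 CPM against 873, 899 and 973 CPM, without overlap (log2 fold change -0.32, 95% confidence interval -0.70 to 0.06, adjusted p = 0.605). HMGA2 was called when the fit held only these 6 libraries, where 474 of 14357 genes were called. In that edgeR fit 6 HMG genes had an unadjusted p below 0.05. For none of these unadjusted counts was the share of all genes determined. HMGB3 was at 54.9, 49.9 and 56.7 CPM against 59.8, 60.4 and 63.1 CPM (log2 fold change -0.18, adjusted p = 0.486).

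In senescent cells, HMGA1, HMGA2 and HMGB2 were lower and HMGN1 was higher with TRF2 than with the empty vector. These were 3 genes lower and 1 higher of 10, against 6.41% of all genes lower and 4.87% higher. HMGA2 was at 137, 131 and 155 CPM against 289, 627 and 420 CPM, a difference of 3.16-fold (log2 fold change -1.66, SE 0.18, adjusted p = 1.0e-04). HMGA1 was at 679, 647 and 726 CPM against 1082, 1482 and 1883 CPM, a difference of 2.17-fold (adjusted p = 2.9e-04). Neither gene overlapped, and the empty vector libraries spread far more than those with TRF2. HMGB2 was at 12.2, 11.6 and 11.5 CPM against 15.2, 16.4 and 22 CPM (1.52-fold lower, adjusted p = 4.1e-03). HMGN1 was at 201, 199 and 190 CPM against 173, 150 and 157 CPM (1.23-fold higher, adjusted p = 0.017). The HMGN1 call was lost when any of 3 of the 15 libraries was left out, senescent empty vector replicate 2 and TRF2 replicates 1 and 2 (adjusted p 0.05 to 0.076). A fit of only these 6 libraries called 0 HMG genes and 2 of 14600 genes in all. All 4 HMG genes named here had an unadjusted p below 0.05 in it. These libraries also entered the fit that called the 4 genes, and the share of all genes at that unadjusted limit was not determined. The 2 vectors also differ in PD at harvest, which cannot be told apart from TRF2.

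The difference between the senescence changes with TRF2 and with the empty vector was tested as an interaction. It was -1.34 on the log2 scale for HMGA2 (SE 0.25, adjusted p = 0.027) and -0.94 for HMGA1 (SE 0.20, adjusted p = 0.0372). Of both genes, only HMGA2 was also called lower at senescence with the empty vector when no offsets were used. With the offsets both were, at -0.89 for HMGA1 and -0.51 for HMGA2 (adjusted p = 2.9e-07 and 0.0352). The interaction with the offsets was -0.58 for HMGA1 (adjusted p = 0.0285). Without offsets, the interaction was called for 2 of 10 HMG genes, where 1.13% of all genes were called. The interaction call of HMGA1 was lost on leaving out any of 13 of the 15 libraries (adjusted p 0.053 to 0.11), all but senescent empty vector replicates 1 and 3, and that of HMGA2 on leaving out any of 8 (0.055 to 0.082), namely any young empty vector or young TRF2 library and senescent TRF2 replicates 1 and 2. Over all genes, the fits that lost either call called 6 to 101, against 179 with all 15 libraries. HMGB2 (-0.46, adjusted p = 0.176) and HMGN1 (0.32, adjusted p = 0.15) did not pass. Both were called without senescent empty vector replicate 1 (adjusted p = 0.019 and 0.018), where 2089 of 16265 genes were called. DESeq2 also called HMGN1, with 565 of 15799 genes called in all. For HMGB1 the interaction was 0.13 (95% confidence interval -0.07 to 0.32).

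**Figure D4:**
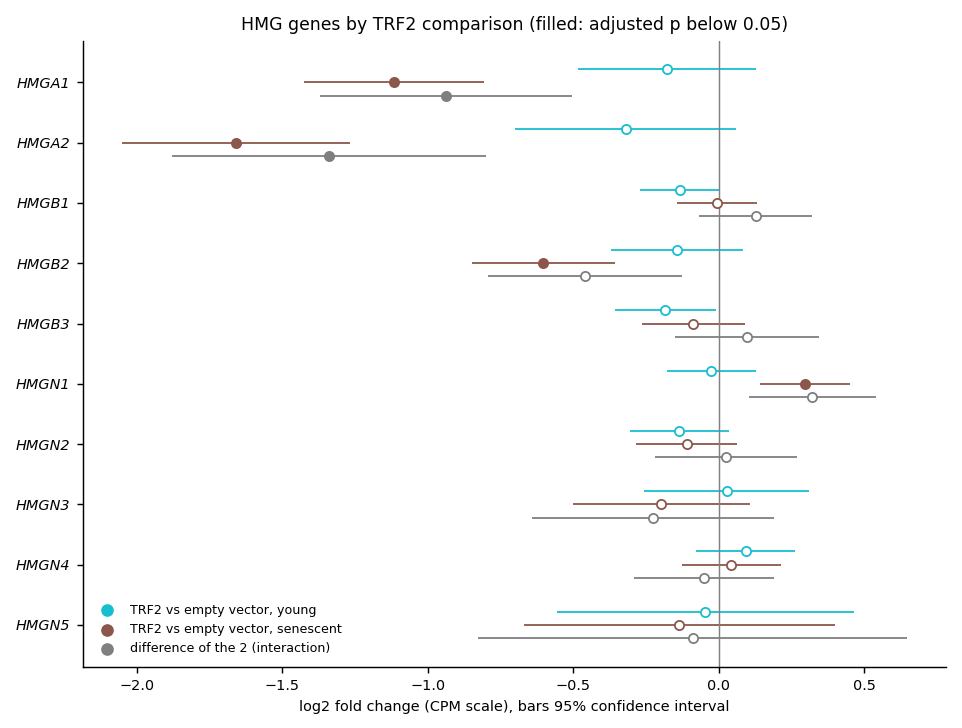
Log2 fold changes (x axis) of the HMG genes (y axis) with TRF2 against the empty vector in young cells, in senescent cells and as the difference between both, with 95% confidence intervals as bars and filled points where the adjusted p was below 0.05. HMGA1, HMGA2, HMGB2 and HMGN1 are called in senescent cells, and none is called in young cells.

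By condition, the order of mean levels was the same for HMGB1, HMGB2 and HMGB3, namely young empty vector, young TRF2, young siLMNB1, senescent empty vector and senescent TRF2. The senescent conditions overlapped for HMGB1 and HMGB3 and did not for HMGB2. For HMGA2 the siLMNB1 level (243 ± 14.8 CPM, SD, n = 3) lay below the senescent empty vector level (445 ± 171 CPM) and above the senescent TRF2 level (141 ± 12.6 CPM), without overlap. For HMGA1 the siLMNB1 (733 ± 55.3 CPM) and senescent TRF2 (684 ± 39.7 CPM) levels overlapped, and the senescent empty vector libraries overlapped both young conditions with the control siRNA.

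The 24 genes high in dividing cells moved with these groups. Their summed level was 1589 to 1669 CPM in young cells with the empty vector, 1333 to 1398 with TRF2 and 875 to 919 with siLMNB1. In senescent cells it was 383 to 426 CPM with the empty vector and 262 to 291 with TRF2. Of the 24 genes, 23 fell at senescence with the empty vector, 24 with TRF2 and 21 with siLMNB1. The shares of all genes that fell were 31.9%, 30.1% and 16.1%. In senescent cells 22 fell with TRF2, against 6.41% of all genes. In young cells 0 of the 24 were called with TRF2, against 0.177% of all genes. MKI67, a marker of cycling cells, was 9.67-fold lower, the transcription factor gene E2F2 fell by 3.21 and the nucleotide synthesis gene TYMS, which shares 47.9% of its exonic bases with another gene, fell by 3.16 on the log2 scale in senescent cells with the empty vector. The part of the share of dividing cells in the HMG changes was not tested.

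**Figure D5:**
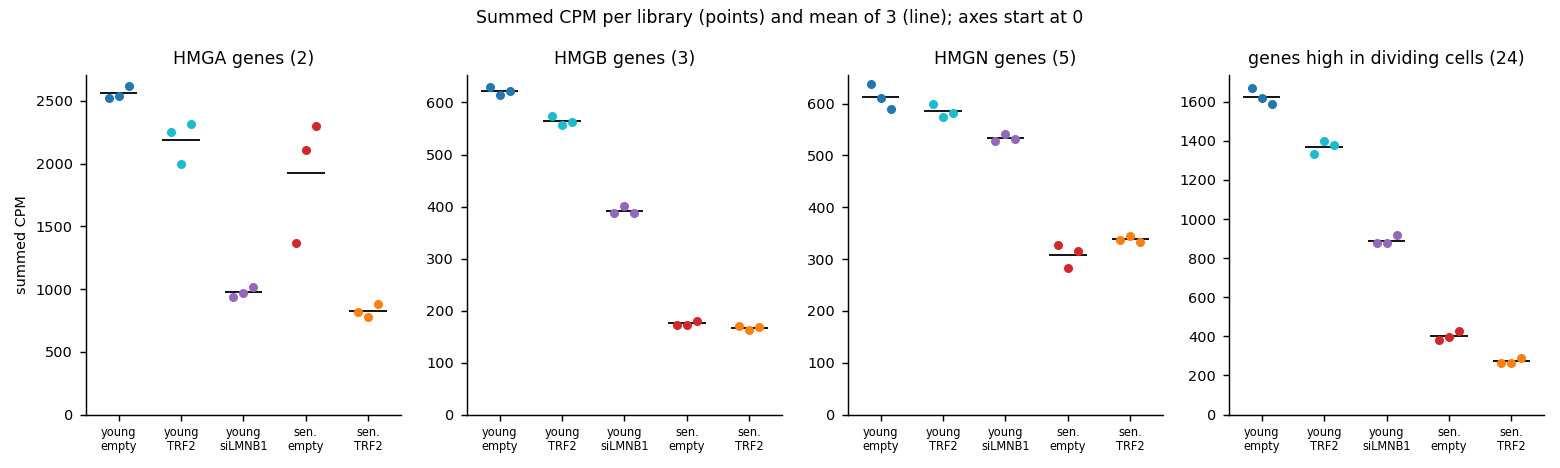
Summed CPM (y axis from 0) of the HMGA, HMGB and HMGN genes and of 24 genes high in dividing cells in each library (points) by condition (x axis), with the mean of 3 as a line. HMGB sums run from 614 to 630 CPM in young cells with the empty vector down to 173 to 180 in senescent cells with that vector, while HMGA sums are widely spread in the latter, from 1371 to 2303 CPM.

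The genes whose log2 CPM followed each HMG gene most closely over the 15 libraries were sought among 13175 protein-coding genes for the 7 members called in both senescence comparisons. HMGB1 was followed by the spindle genes PRC1 and NUSAP1 and by RNASEH2A (Pearson's r of 0.998, 0.997 and 0.997), and HMGB2 by BUB3, CACYBP and CCT5 (r of 0.994, 0.993 and 0.991). HMGB3 was followed by HAS2, DUT and HNRNPA3, and HMGN2 by MKKS, HNRNPA1 and ABCF2. For HMGA2 these were TMEM132B, NTNG1 and SLC37A2 (r of 0.984, 0.984 and 0.982), for HMGN1 H2AZ2, USP39 and SKA2, and for HMGN3 COMMD7, RAB13 and PPIH. Among the HMG genes, HMGB1 and HMGN2 were the most alike (r = 0.983), and HMGA1 and HMGN4 the least (r = -0.614). All these values are descriptions over libraries that share their conditions.

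Copies of HMG genes in the genome could take or lend reads. Of the canonical transcript, 89.4% of bases in HMGN1, 62.4% in HMGN2, 41.3% in HMGB1 and 16.1% in HMGA1 lay in a stretch of at least 100 bases with at least 97% identity elsewhere in GRCh38, and 0 in the other members. The counts of these 4 genes are therefore less certain. Of 157 annotated HMG pseudogenes, 89 had no read and 5 had a mean of at least 10 reads (HMGB1P5, HMGB1P6, HMGB1P10, HMGN2P3 and HMGN2P5). Pseudogene reads summed to 4.17% of those of HMGB1 and 2.32% of those of HMGN2. In senescent against young cells with the empty vector, HMGB1P6 fell by 1.86 and HMGN2P5 fell by 1.91 on the log2 scale.

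Of 22 other genes with an HMG box, 20 were tested, and 4 rose and 10 fell at senescence with the empty vector. Over all genes tested, 32.7% rose and 31.9% fell. TOX fell from 14.6 to 0.481 CPM (log2 fold change -4.93, adjusted p = 3.1e-09), and with siLMNB1 it rose to 33.2 CPM. SMARCE1, a chromatin remodelling subunit that shares 18.9% of its exonic bases with another gene, fell from 49.2 to 7.47 CPM, and the replication factor gene WDHD1 from 26.9 to 7.17 CPM. With the offsets, 0 of these 20 genes rose and 12 fell, where 9081 of 15799 genes were called in either direction. Among the linker histones, which HMGN proteins compete with, H1-2 rose by 1.63 on the log2 scale, and H1-10 did not pass the test (0.19, adjusted p = 0.41). H1-1, H1-3, H1-4, H1-5 and H1-6 had at most 8 reads in any library.

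Of 12 genes of the let-7 axis, 9 were tested, and 7 fell and 1 rose at senescence with the empty vector. The shares of all genes tested were 31.9% lower and 32.7% higher. DICER1 fell by 0.77 and AGO2 fell by 0.69 on the log2 scale, both being microRNA processing or effector genes. With the offsets DICER1 was at -0.35 (adjusted p = 0.023) and AGO2 at -0.70. At senescence with TRF2, DICER1 was not called (-0.36, adjusted p = 0.19) and AGO2 was (-0.52, adjusted p = 0.012). The host transcript MIRLET7A1HG, which shares 33.3% of its exonic bases with another gene, had no read in the young empty vector libraries and a mean of 0.803 CPM in the senescent ones, with at most 32 reads in a library. IGF2BP1, IGF2BP2 and IGF2BP3, which encode oncofetal RNA-binding proteins, had log2 fold changes of -0.43, -0.64 and -0.43, all called. LIN28A and LIN28B, which block let-7 maturation, had at most 1 and 3 reads in a library. With siLMNB1, 4 of the 9 fell and 0 rose, against 16.1% and 16.4% of all genes.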

How the data were processed

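Paired-end RNA sequencing reads of MRC-5 libraries were trimmed with Trimmomatic and mapped to GRCh38 with STAR, and the authors deposited the counts of reads per gene, without normalization. The annotation release and the strand setting are not given in the sources used here. Groups came from the labels. Genes were named with GENCODE 44, and 324 of 57272 were absent from it. Counts were normalized with TMM, filtered with filterByExpr and fitted in 1 model of 5 condition means with edgeR 4.0.16 in R 4.3.3. Fold changes were tested with the quasi-likelihood test of edgeR, and p-values were adjusted after Benjamini and Hochberg over 15799 genes and called below 0.05. CPM are TMM-normalized, and RPKM divide them by length. Offsets for GC content and length were taken from loess fits (span 0.3) in each library. Depth was 26725885 to 43116046 counts, and the 3 replicates limit the precision. Alternatives were RLE scaling, DESeq2 1.42.0, no filter, only the libraries compared, the replicate block and leaving out each library. The block with offsets was added after seeing the data. Scripts were tested on simulated data. The members and gene lists were chosen with earlier results of these data known. Named were all HMG genes, LMNB1 and TERF2, the 3 called genes of each other list with the largest fold change at senescence, the 3 genes most alike to each member called in both senescence comparisons, and HMG pseudogenes with a mean of at least 10 reads. Other genes named were chosen after their values were seen. A gene that this rule also names is not reported here. Python 3.11.15 with pandas 2.3.3 and matplotlib 3.10.9 served for tables and figures.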

Additional observations from a re-analysis of the deposited data

Results flagged for a closer look

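The senescence change of HMGA1 differed between the vectors by -0.937 and that of HMGA2 by -1.34 on the log2 scale, as TRF2 minus empty vector. Both were flagged because the test of the difference itself, the interaction term of edgeR's quasi-likelihood test, gave adjusted p of 0.0372 and 0.027. All 3 senescent TRF2 libraries lay below all 3 senescent empty vector libraries for both genes, and the empty vector libraries were the more widely spread.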

How the results depend on the processing

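Of 60 log2 fold changes (10 genes in 6 comparisons), 60 kept direction and side of the threshold with the replicate block, 59 with RLE scaling, 57 with DESeq2, 58 without the filter, 51 with GC and length offsets and 51 in fits of only the libraries compared. The replicate numbers were taken as names: deviations of same-numbered libraries had r of -0.0945 to 0.201 (2 of 30 above 0.1), and the block changed no call. Fits of only the libraries compared called 1 HMG gene (not 0) for TRF2 in young cells, 0 (not 4) for TRF2 in senescent cells and 0 (not 2) for the interaction, for which leaving out a library gave 0 to 4.

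Directions turned for genes that had not passed. With the offsets these were HMGN5 at senescence with the empty vector (0.53, or 0.54 with the replicate block) and with TRF2 (0.41, or 0.405), HMGN4 with TRF2 (0.52, or 0.52), and the interactions of HMGN4 (0.046, or 0.045) and HMGB1 (-0.0041). HMGN4 with TRF2 was 0.0069 with RLE and 0.0067 with DESeq2, and HMGB1 for TRF2 in senescent cells was 0.00075 without the filter and 0.00039 with only the libraries compared. Leaving out a library gave -0.38 to 0.026 for HMGA1 and -0.018 to 0.080 for HMGN4 at senescence with the empty vector, and -0.059 to 0.012 for HMGN4 with TRF2. For TRF2 in young cells the ranges were -0.073 to 0.010 (HMGN1), -0.026 to 0.067 (HMGN3) and -0.32 to 0.12 (HMGN5). In senescent cells they were -0.016 to 0.014 (HMGB1), -0.31 to 0.048 (HMGN3), -0.00082 to 0.092 (HMGN4) and -0.25 to 0.049 (HMGN5). For the interaction they were -0.057 to 0.10 (HMGN2), -0.34 to 0.037 (HMGN3), -0.094 to 0.0019 (HMGN4) and -0.25 to 0.18 (HMGN5). The cause of these changes was not tested. Depth limits HMGN5 most, with 54 to 146 reads per library.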

Other observations

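HMGB2 is known as a partner of the SET complex, whose genes were listed with the HMG genes. Of the 5 genes, 4 were tested and all 4 fell at senescence with the empty vector, against 31.9% of all genes. The log2 fold changes were -1.24 for SET, -1.09 for NME1, -0.87 for ANP32A and -0.25 for APEX1. In cells with TRF2, 3 of 4 were lower at senescence, against 30.1% of all genes. NME1 shares 18.7% of its exonic bases with another gene.

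Of 15 genes linked with senescence-associated heterochromatin foci, 4 rose and 8 fell with the empty vector, against 32.7% and 31.9% of all genes. LMNB1 fell by 3.54, LBR fell by 1.69 and CBX5, which encodes HP1 alpha, fell by 1.26 on the log2 scale, while the cyclin-dependent kinase inhibitor genes CDKN2A and CDKN1A rose by 1.20 and 0.94. With siLMNB1, LBR fell by 1.87 and CBX5 was at -0.06 (adjusted p = 0.79).

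Of 10 receptors and partners of extracellular HMGB1, 6 were tested. Of these, 3 rose and 1 fell at senescence with the empty vector, against 32.7% and 31.9% of all genes. THBD, which encodes thrombomodulin, rose from 0.608 to 7.78 CPM and fell to 0.0761 CPM with siLMNB1. It had at most 6 reads in a siLMNB1 library and at most 20 in a young empty vector library. CXCL12 fell from 11.0 to 2.06 CPM. TREM1 was called higher at 1.46 CPM against 0.0116 CPM, with at most 48 reads in a library.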
